A study of Homo sapiens with 21 samples.

Results

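BT-549 mammospheres at passage 6 (3D cells) were compared with the same line grown attached to plastic (2D cells), gene by gene over the transcriptome. BT-549 is an established triple-negative breast cancer (TNBC) cell line with a mesenchymal form. The comparison used 6 of the 21 RNA-seq libraries of the study, 3 of 2D and 3 of 3D cells, taken by their labels of growth format and control treatment, and the genes were grouped by function outside glycolysis, electron transport and mtDNA. Both groups were BRCA1 wild-type, carried no shRNA and received no drug. The 2D cells were kept in RPMI1640 with 10% fetal bovine serum, penicillin, streptomycin and 10 µg/ml insulin. The 3D cells were grown in MammoCult medium on ultra-low attachment plates and serially passaged to passage 6, with larger spheres dispersed to single cells at each passage. Medium, serum, attachment, sphere form and number of passages therefore changed together, and their parts in any difference cannot be told apart. The 6 libraries came from 1 parental line, and the labels do not say whether the cultures of a group were started separately, so p-values measure the spread between these cultures.

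Epithelial and mesenchymal cells attached to plastic bind serum and self-made matrix through integrins, build focal adhesions and stress fibres, and touch their neighbours through cadherins. Cells in suspension lose the contact with a rigid surface, and growth as spheres depends on soluble growth factors, on cell to cell contact and on the matrix the cells make themselves. Mammosphere culture is widely used to enrich for cancer cells with self-renewal capacity.

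Each library held 43861798 to 67272436 counts, and 19190 genes passed the filter for low counts, 13185 of them protein-coding. Levels are given as CPM, counts brought to a common library total with TMM factors. Counts of 2 were more frequent than counts of 1, so the mates of a read pair seem to have been counted separately, and counting intervals take 2 counts as 1 event. Levels are not divided by gene length, so they compare libraries and not genes. Differences are log2 fold changes of 3D minus 2D from edgeR's quasi-likelihood test, with n = 3 libraries in each group and p-values adjusted over all 19190 genes. A gene passed at an adjusted p below 0.1, and it was called when its absolute log2 fold change was also above 1.5. ASNS, AXIN2, BMI1, CYP51A1, IFITM1, ITGB3, TAGLN and TGFB2 have 21.1% to 68.2% of their exon sequence in common with a second gene of the same strand, which makes their values uncertain. In bulk RNA, fewer cells that express a gene and less RNA in each cell cannot be told apart. Each of the 8 markers listed for a mesenchymal line was at 49.6 CPM or more in every library, although their levels changed, FN1 being called higher and CDH2 lower. VIM, the mesenchymal intermediate filament, was at 1159.7 to 1184 CPM in 2D and 1239.6 to 1347 in 3D cells. Of the epithelial and hormone receptor markers, EPCAM, KRT19, ESR1 and PGR did not exceed 0.123 CPM in any library, while ERBB2 was at 22.4 to 36.6 CPM. FOXA1, at 3.91 to 4.47 CPM in 2D cells, TP63 and ACTA2 were called lower. KRT8, just past the size for a call (log2 fold change 1.51), and GATA3, with 2 counts left in 2D cells without 2D replicate 2, were called higher at 0.576 CPM or less, and KRT5, a basal keratin, rose from at most 0.068 to between 22.1 and 25.6 CPM. Of the hematopoietic and endothelial markers, CD3E, HBB and CDH5 had no count, but PTPRC was at 1.03 to 1.48 CPM in 2D cells and called lower, CD14 was called higher at 0.546 CPM or less, TEK was at 0.966 to 1.54 CPM in 2D cells, and PECAM1 rose from at most 0.034 to between 5.91 and 7.19 CPM. Among adipocyte and neural markers, CIDEC rose from at most 0.12 to between 10.4 and 11.6 CPM, MAP2 was at 42.3 to 49.6 CPM in 2D and 15.9 to 17.1 in 3D cells, and TUBB3, at 8.49 to 11.6 CPM in 2D cells, was called lower. SYP, at 1.02 to 1.36 CPM in 2D and 3.11 to 3.42 in 3D cells, passed as higher, and SNAP25 was at 5.23 to 6.56 CPM in all libraries and did not pass (adjusted p = 0.749). The part of other cell types in the results was not tested.

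Changes were widespread. Of the genes tested, 6140 were higher in 3D cells at an adjusted p below 0.1 (32.0%) and 6083 were lower (31.7%), so that passing the test alone says little about a list. The thresholds for a call were met by 1324 higher genes (6.90%) and 1783 lower genes (9.29%). Among protein-coding genes 38.9% passed as higher and 35.6% as lower, and 7.48% were called higher and 9.30% lower. Among the 3169 lncRNA genes 6.94% were called higher and 13.0% lower. Over all genes tested the median change was -0.007 on the log2 scale. Matrix genes were called lower most often among 6 functions, in 59 of 183 tested (32.2%), with 29 called higher (15.8%). Adhesion and immune genes had the same tilt, with 33 lower and 16 higher of 129 adhesion genes (25.6% and 12.4%), and 44 lower and 22 higher of 162 immune genes (27.2% and 13.6%). The immune tilt came mostly from interferon-stimulated genes, with 28 of the 44 lower and 2 of the 22 higher calls. Antigen presentation, cytokines, complement, checkpoint ligands and NF-kB had 0, 8, 3, 3 and 6 called higher and 2, 6, 3, 3 and 2 lower. Genes of lipid synthesis, sterol transport and lipid storage tilted the other way, with 25 of 116 called higher (21.6%) and 6 lower (5.17%). Of 442 signalling genes, 107 were called higher (24.2%) and 67 lower (15.2%). Cell cycle genes had the fewest calls, with 4 called higher (1.84%) and 1 lower (0.461%) of 217.

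**Figure D1:**
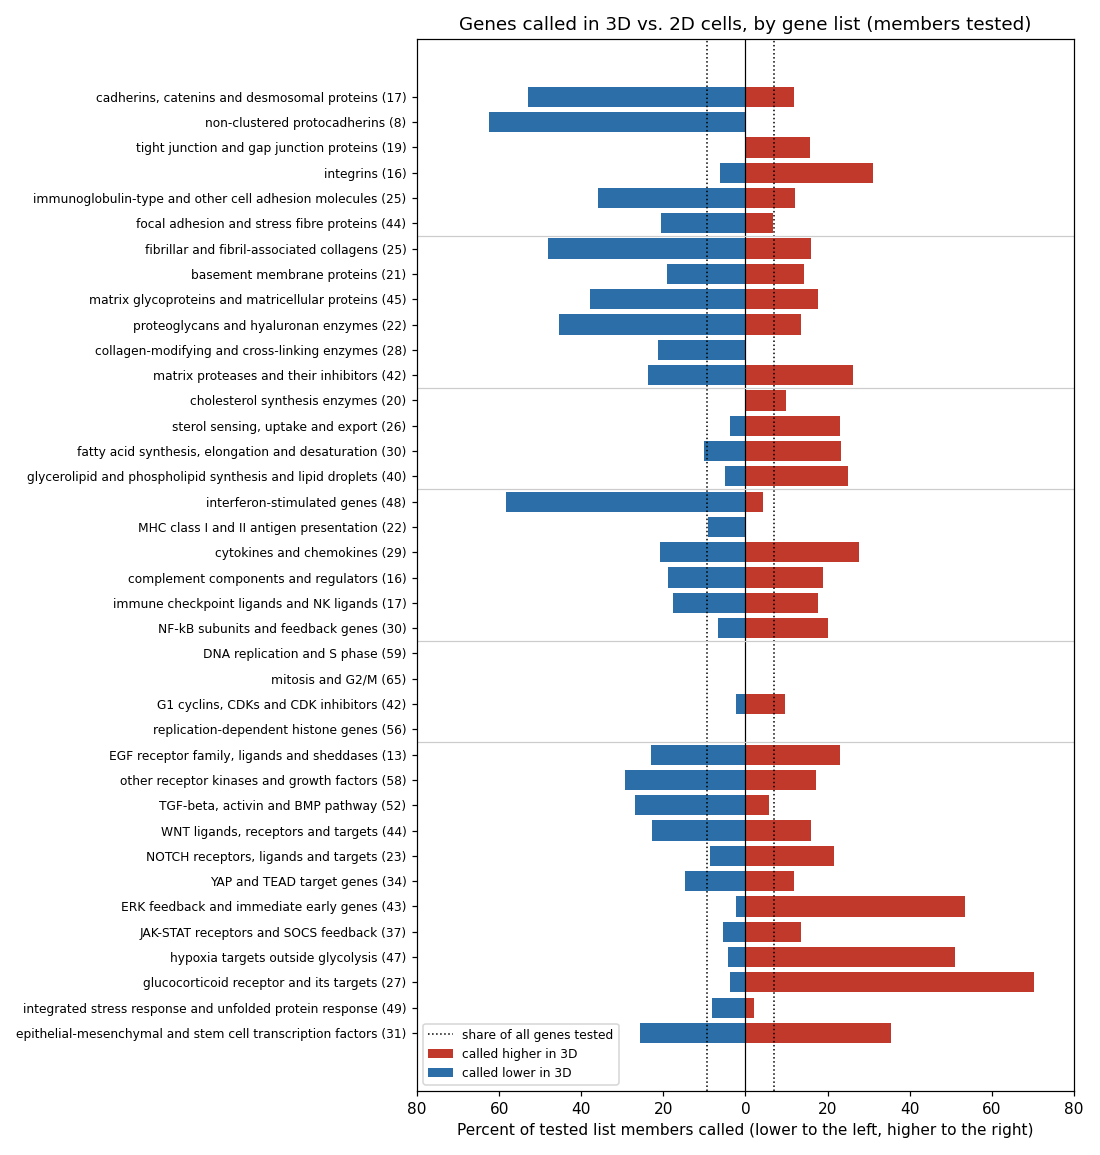
Percent of the tested members of each gene list called higher (red, to the right) or lower (blue, to the left) in 3D vs. 2D cells, with the number tested in parentheses and dotted lines at the 6.90% and 9.29% of all genes tested. Bars reach farthest to the left for protocadherins, interferon-stimulated genes and cadherins, and farthest to the right for targets of the glucocorticoid receptor, ERK feedback genes and hypoxia targets.

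The called genes with the largest gains and losses in level are named first. FN1, FKBP5, AHNAK, MT2A, ELL2, FASN, CTSL, PLIN2, ANPEP, ERRFI1, SRGN and CSTB gained the most CPM among called genes, and SPARC, THBS1, TFRC, COL12A1, ALCAM, CDH6, EDIL3, COL1A1, MARCKS, COL15A1, COL3A1 and DCBLD2 lost the most. Of these, AHNAK, a giant scaffold protein, was at 496, 489.5 and 567 CPM in 2D cells and 2762, 3207 and 2283 CPM in 3D cells. All 3D libraries lay above all 2D libraries, with the widest spread among the 3D libraries (log2 fold change 2.41, SE 0.0966, adjusted p = 2.3e-12). TFRC, the transferrin receptor that takes up iron, was at 1451, 1383 and 1456 CPM in 2D cells and 279, 282 and 288 CPM in 3D cells, with no overlap (log2 fold change -2.34, SE 0.0511, adjusted p = 9.78e-16). MARCKS, an actin-binding membrane protein, EDIL3, a secreted integrin ligand, and DCBLD2, a membrane receptor, had log2 fold changes of -2.58, -4.33 and -2.68. ANPEP, the surface peptidase CD13, ELL2, a transcription elongation factor, and CSTB, a cathepsin inhibitor, had log2 fold changes of 2.69, 2.27 and 2.63.

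The cadherins, which bind like cadherins on neighbouring cells, were mostly lower. In the list with catenins and desmosomal proteins, 17 members were tested, of which 3 passed as higher and 11 as lower and 2 and 9 were called, with a median log2 change of -1.74. Their summed level was 2986 to 3287 CPM in 2D and 807 to 826 CPM in 3D libraries. CDH6 (ENSG00000113361.13; chromosome 5, 31193686 to 31329146) was at 1029.6, 999 and 1116 CPM in 2D cells and 0.329, 0.488 and 0.658 CPM in 3D cells. It was below 1 CPM in each 3D library (log2 fold change -11.01, SE 0.122, adjusted p = 1.22e-18). CDH11, the cadherin of osteoblasts and fibroblasts, was at 571, 626 and 692 CPM in 2D cells and 6.09, 7.45 and 7.62 CPM in 3D cells, with no overlap (log2 fold change -6.47, SE 0.0997, adjusted p = 2.24e-17). CDH2, N-cadherin, the main cadherin of mesenchymal cells, was at 442, 427 and 451 CPM in 2D cells and 51.6, 51.4 and 49.6 CPM in 3D cells (log2 fold change -3.11, SE 0.0573, adjusted p = 1.38e-16). It fell in each 3D library by about the same amount.

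The epithelial cadherin CDH1 was low in 2D cells, at 1.48, 1.5 and 1.26 CPM, and had no count in 3D cells, at least 38.8-fold lower against a floor of 6 counts (3 read pairs) over the group. Of the desmosomal genes tested, DSG2, DSC2 and JUP, plakoglobin, fell, with log2 fold changes of -3.93, -2.37 and -2.67. DSP and DSC3 overlapped between groups and did not pass (adjusted p = 0.297 and 0.411), and PKP4 passed as higher (log2 fold change 0.42). CDH3 and CDH13 had log2 fold changes of -2.46 and -1.74. The members called higher were PKP3, a desmosomal plaque protein, with a log2 fold change of 1.84, and CDH4, which had no count in 2D cells and was at least 6.53-fold higher. Of 8 non-clustered protocadherins tested, 5 were called lower and 0 higher, with a median of -2.00. PCDH18, PCDH19, PCDH10 and PCDH7 had log2 fold changes of -3.65, -4.89, -3.04 and -1.63, and the remaining one called, PCDH17, of -2.38. PCDH9, from 292 to 489 CPM, and PCDH1 passed as higher, with log2 fold changes of 0.75 and 1.18.

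Among immunoglobulin-type and other adhesion molecules, 25 members were tested, of which 5 passed as higher and 16 as lower and 3 and 9 were called, with a median log2 change of -0.81. CD24, a mucin-like surface protein whose low level is used with CD44 to sort breast cancer stem cells, was at 512, 572 and 602 CPM in 2D cells and 10.8, 12.2 and 10.2 CPM in 3D cells. It was low in each 3D library (log2 fold change -5.67, SE 0.0871, adjusted p = 2.24e-17). CD44, the hyaluronan receptor of the same sort, was at 1554, 1558 and 1610.5 CPM in 2D cells and 872, 899.9 and 925 CPM in 3D cells and fell by less (log2 fold change -0.81, SE 0.0482, adjusted p = 3.92e-10). ALCAM, which binds itself and CD6, was at 1349, 1362 and 1439 CPM in 2D cells and 272, 290.3 and 293 CPM in 3D cells (log2 fold change -2.28, SE 0.0544, adjusted p = 3e-15). The neural adhesion molecule NCAM1, MCAM and NECTIN1 were also called lower, with log2 fold changes of -3.56, -4.11 and -2.21. CADM2 and L1CAM were called higher (log2 fold change 2.16 and 1.88), and NRCAM, with 2 counts in 2D cells, was higher by 147-fold (95% counting interval 26.4 to 5800). EPCAM was too low to test.

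Integrins, the receptors for matrix, went both ways. Of 16 tested, 5 were called higher and 1 lower. ITGB1, the beta chain shared by most matrix receptors, was at 1914, 2062 and 2094 CPM in 2D cells and 851, 852 and 912 CPM in 3D cells, with all 3D libraries below all 2D libraries (log2 fold change -1.21, SE 0.0531, adjusted p = 7.12e-12). ITGA10, an alpha chain of collagen receptors, was at 5.02, 9.21 and 7.91 CPM in 2D cells and 208, 205 and 216 CPM in 3D cells (log2 fold change 4.81, SE 0.14, adjusted p = 3.62e-14). ITGA5, which pairs with ITGB1 to bind fibronectin, rose from 51.9 to 188 CPM (log2 fold change 1.86, SE 0.0579, adjusted p = 9.06e-14). ITGB4, the laminin receptor chain of hemidesmosomes, rose from 1.84 to 35 CPM (log2 fold change 4.24, SE 0.112, adjusted p = 1.08e-14). ITGA7 and ITGA1 were called higher at low levels, with log2 fold changes of 1.96 and 3.85, and ITGB3 was called lower (log2 fold change -1.85). ITGA1 moved to a log2 fold change of 3.24 without 2D replicate 2 and 3.22 without 2D replicate 3 and had no count left in 2D cells without 2D replicate 1.

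In focal adhesions and stress fibres, more genes were called lower than higher. 44 members were tested, of which 16 passed as higher and 17 as lower and 3 and 9 were called, with a median log2 change of -0.02. The share called higher, 6.82%, was near the 6.90% of all genes, and 20.5% were called lower, beside 9.29%. VCL, vinculin, was at 289.6, 307 and 321 CPM in 2D cells and 305, 286 and 301 CPM in 3D cells, and the groups overlapped (log2 fold change -0.04, SE 0.0562, adjusted p = 0.551). TPM1, the tropomyosin of stress fibres, was at 272, 247 and 230.0 CPM in 2D cells and 6.05, 6.91 and 7.1 CPM in 3D cells (log2 fold change -5.22, SE 0.087, adjusted p = 5.15e-17). CALD1, caldesmon, fell from 101 to 4.75 CPM, a log2 fold change of -4.42. TLN2 and the kinase SRC had log2 fold changes of -3.22 and -1.81. The smooth muscle type genes TAGLN, ACTA2, MYL9 and CNN1 and the filamin FLNC were called lower, with log2 fold changes of -4.05, -2.55, -2.57, -4.35 and -5.19. Other contractile members did not follow, MYLK, the myosin light chain kinase, passing as higher (log2 fold change 0.9) and the tropomyosins TPM2 and TPM3 among those that did not pass (adjusted p = 0.194 and 0.224). The genes called higher were tensins, TNS2 and TNS4 with log2 fold changes of 2.1 and 3.01, and TNS1, with 2 counts in 2D cells, by 82.7-fold (95% counting interval 14.8 to 3270). Tight and gap junction genes had 3 called higher and 0 lower of 19, although 4 passed as higher and 9 as lower, with a median of -0.35. CLDN1, a claudin, rose from 62.3 to 284 CPM (log2 fold change 2.19, SE 0.0787, adjusted p = 5.43e-13), and GJB2 and CLDN7 were called higher from below 1 CPM. GJA1, connexin 43, and TJP1, ZO-1, passed as lower with log2 fold changes of -0.56 and -0.54. CLDN7 lost its call with 1 library left out, at a log2 fold change of 1.44 without 2D replicate 3.

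Fibrillar collagens were lower on the whole, and the chains of a single collagen did not move alike. In the list, 25 members were tested, of which 6 passed as higher and 18 as lower and 4 and 12 were called, with a median log2 change of -1.21. COL1A1, the alpha 1 chain of type I collagen, was at 1013, 1103 and 1011 CPM in 2D cells and 61, 57.3 and 54.5 CPM in 3D cells. Each 3D library was far below each 2D library (log2 fold change -4.18, SE 0.0654, adjusted p = 2.69e-17). COL1A2, the chain that assembles with it, was at 1408, 1574 and 1696 CPM in 2D cells and 1288, 1243 and 1258 CPM in 3D cells (log2 fold change -0.3, SE 0.0606, adjusted p = 0.000392), lower in each 3D library by far less. COL3A1 was at 638, 845 and 909 CPM in 2D cells and 87.2, 81.7 and 90.3 CPM in 3D cells (log2 fold change -3.21, SE 0.103, adjusted p = 1.36e-13). COL12A1 and COL5A2 were also called lower (log2 fold change -2.26 and -1.6). In type VI collagen, a beaded filament around cells, the chains went in opposite directions. COL6A1 was at 41, 45.3 and 41.2 CPM in 2D cells and 534, 495 and 496 CPM in 3D cells (log2 fold change 3.58, SE 0.0649, adjusted p = 1.22e-16) and COL6A2 at 15.9, 20.9 and 18.3 CPM in 2D cells and 512, 457 and 449 CPM in 3D cells (log2 fold change 4.68, SE 0.0936, adjusted p = 3.41e-16). Both rose in every 3D library, whereas COL6A3, the third chain, fell from 11.4 to 1.81 CPM (log2 fold change -2.65, SE 0.178, adjusted p = 1.82e-09). COL27A1 rose (log2 fold change 3.25), and COL11A1, without a count in 2D cells, was at least 26.6-fold higher. The other members called lower had levels of at most 15.3 CPM in 2D cells.

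**Figure D2:**
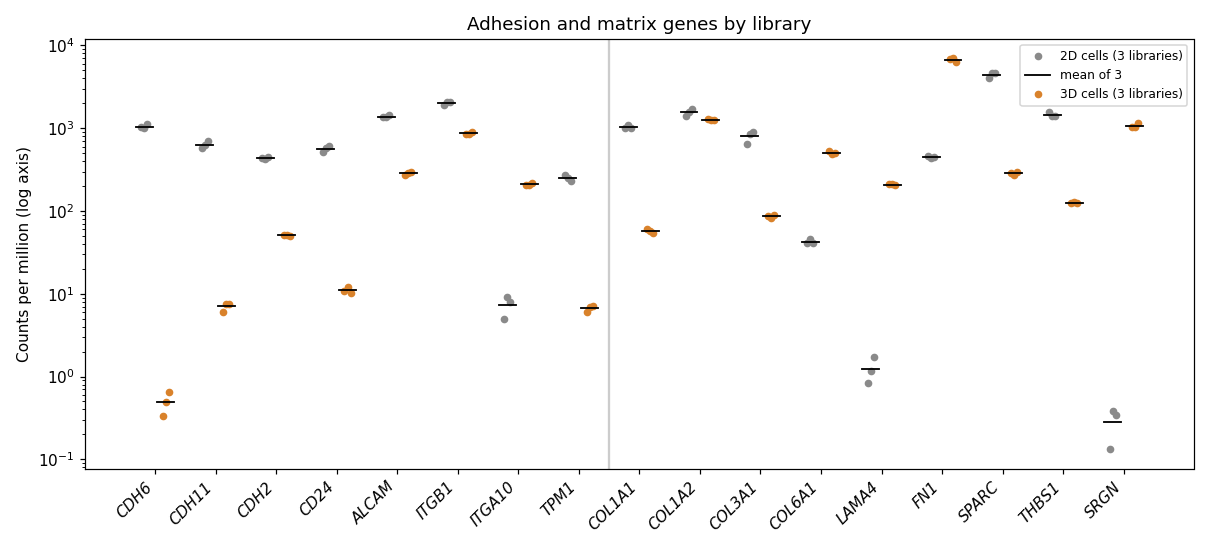
CPM on a log axis of adhesion genes (left) and matrix genes (right) in the 3 libraries of 2D cells (grey) and of 3D cells (orange), with black bars at the mean. Libraries of a group lie close together, and the groups are separate for each gene shown, with COL1A2 nearest to overlap and CDH6, LAMA4 and SRGN farthest apart.

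Among matrix glycoproteins FN1 rose while SPARC and THBS1 fell. Of 45 tested, 8 were called higher and 17 lower (median -0.76), while their summed level stayed in the same range, 8886 to 9573 CPM in 2D and 8683 to 9313 CPM in 3D libraries. FN1, fibronectin, was at 463, 438 and 447 CPM in 2D cells and 6771, 6979.6 and 6299 CPM in 3D cells, the largest gain of CPM among called genes (log2 fold change 3.89, SE 0.0559, adjusted p = 1.37e-17). SPARC, a collagen-binding matricellular protein, was at 4026, 4646 and 4666 CPM in 2D cells and 287, 274 and 292 CPM in 3D cells, the largest loss (log2 fold change -3.97, SE 0.0655, adjusted p = 4.81e-17). THBS1, thrombospondin 1, an inhibitor of angiogenesis and activator of TGF-beta, was at 1572, 1409 and 1403 CPM in 2D cells and 126, 129.6 and 124 CPM in 3D cells (log2 fold change -3.53, SE 0.061, adjusted p = 8e-17). CCN2 and SPOCK1 fell (log2 fold change -2.9 and -4.47). POSTN, EFEMP1, FBN2 and EMILIN2 also had lower levels, with log2 fold changes of -4.89, -2.92, -3.72 and -5.6. SRPX was at 0.398, 0.31 and 0.444 CPM in 2D cells and 275, 294 and 335 CPM in 3D cells, nearly absent from 2D cells (log2 fold change 9.61, SE 0.125, adjusted p = 5.89e-18). FBLN5, an elastic fibre protein, CCN5 and SRPX2 were called higher (log2 fold change 8.22, 4.33 and 2.2). TNC, tenascin C, passed as lower with a log2 fold change of -0.76. FBLN5 had 4 counts left in 2D cells without 2D replicate 2.

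Basement membrane genes had a median of 0.11 (-0.04 to 0.17 with 1 library left out), with 3 of 21 called higher and 4 lower. The genes called higher were laminin alpha chains. LAMA4 was at 0.84, 1.17 and 1.71 CPM in 2D cells and 209, 209.5 and 206 CPM in 3D cells (log2 fold change 7.36, SE 0.13, adjusted p = 9.46e-17), and LAMA5 and LAMA2 had log2 fold changes of 2.01 and 2.08. Called lower were COL15A1, a collagen beside the membrane, from 838 to 83.2 CPM, and the linkers HSPG2, perlecan, AGRN and NID1, with log2 fold changes of -3.33, -3.36, -2.05 and -1.93. COL4A1 passed as lower (log2 fold change -0.76).

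Proteoglycans were mostly lower, with SRGN as the main exception, and had 3 of 22 called higher and 10 lower (median -1.15). SRGN, serglycin, the proteoglycan of secretory granules, was at 0.133, 0.38 and 0.342 CPM in 2D cells and 1029.8, 1028 and 1157 CPM in 3D cells (log2 fold change 11.81, SE 0.137, adjusted p = 1.88e-18). It was below 1 CPM in each 2D library. VCAN, versican, was at 324, 334 and 368 CPM in 2D cells and 18.8, 21.1 and 19.7 CPM in 3D cells (log2 fold change -4.1, SE 0.0724, adjusted p = 9.41e-17). SDC1, the epithelial syndecan, SDC3 and CSPG4 had log2 fold changes of -5.18, -2.59 and -3.28, and the small collagen-binding DCN, BGN and LUM of -3.85, -4.05 and -5.33. SDC2 and HYAL3 were called higher (log2 fold change 2.58 and 1.57). HAS2, which makes hyaluronan, passed as higher (log2 fold change 1.1, SE 0.0863, adjusted p = 1.27e-08). BGN moved to a log2 fold change of -4.72 without 3D replicate 3. HYAL3 lost its call with 1 library left out, at a log2 fold change of 1.46 without 2D replicate 3.

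Of the enzymes that modify and cross-link collagen, 6 of 28 were called lower and 0 higher. LOXL1, an amine oxidase of elastic fibres, was at 137, 164 and 145 CPM in 2D cells and 8.5, 8.14 and 7.23 CPM in 3D cells (log2 fold change -4.23, SE 0.0877, adjusted p = 5.32e-16). ADAMTS2 and ADAMTS3, which trim procollagen, and P4HA3 had log2 fold changes of -2.58, -3.99 and -4.06, and COLGALT2 and TLL1 of -2.13 and -3.38. LOX passed as lower and P4HA1, a prolyl hydroxylase, as higher, with log2 fold changes of -0.53 and 0.67. Matrix proteases and inhibitors split evenly, with 11 called higher and 10 lower of 42. CTSL, the lysosomal and secreted cathepsin L, was at 277, 338 and 347 CPM in 2D cells and 1723, 1565 and 1852 CPM in 3D cells (log2 fold change 2.42, SE 0.0821, adjusted p = 2.62e-13). MMP2, gelatinase A, rose from 2.48 to 32.6 CPM, while MMP14, which activates it at the membrane, fell from 235 to 64.2 CPM and TIMP2, which binds both, from 245 to 30.4 CPM. Their log2 fold changes were 3.7, -1.87 and -3.01. TIMP3 and MMP19 were called higher (log2 fold change 4.45 and 8.28), and ADAM12 and ADAMTS1 lower (log2 fold change -1.51 and -2.67). ADAMTS7 had 6 counts in 2D cells and 65.7 CPM in 3D cells, a ratio of 1750-fold (95% counting interval 599.9 to 8500). MMP1 overlapped between groups (log2 fold change 0.13, adjusted p = 0.551). ADAM12 lost its call with 1 library left out, at a log2 fold change of -1.496 without 2D replicate 2, -1.46 without 2D replicate 3, -1.49 without 3D replicate 1 and -1.48 without 3D replicate 3.

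Cholesterol synthesis enzymes rose as a set in small steps. Cholesterol is built from acetyl-CoA through mevalonate and squalene under the control of SREBP2, a factor released from the membrane when sterols are short. Of 20 enzymes tested, 19 passed as higher and 0 as lower, against 32.0% and 31.7% of all genes, and a median change of 1.08. Only 2 were large enough to be called, MVD, the mevalonate decarboxylase (log2 fold change 1.55, SE 0.0656, adjusted p = 4.88e-12), and CYP51A1 (log2 fold change 1.88, SE 0.169, adjusted p = 6.95e-08). HMGCS1, which makes HMG-CoA, was at 241, 234 and 237 CPM in 2D cells and 566, 578 and 598 CPM in 3D cells (log2 fold change 1.29, SE 0.0513, adjusted p = 2.09e-12). SQLE, which oxidises squalene, passed as higher with a log2 fold change of 0.54. PMVK did not pass (log2 fold change 0.16, adjusted p = 0.229). The summed level of the enzymes was 2841 to 2966 CPM in 2D and 4863 to 5072 CPM in 3D libraries, without overlap.

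**Figure D3:**
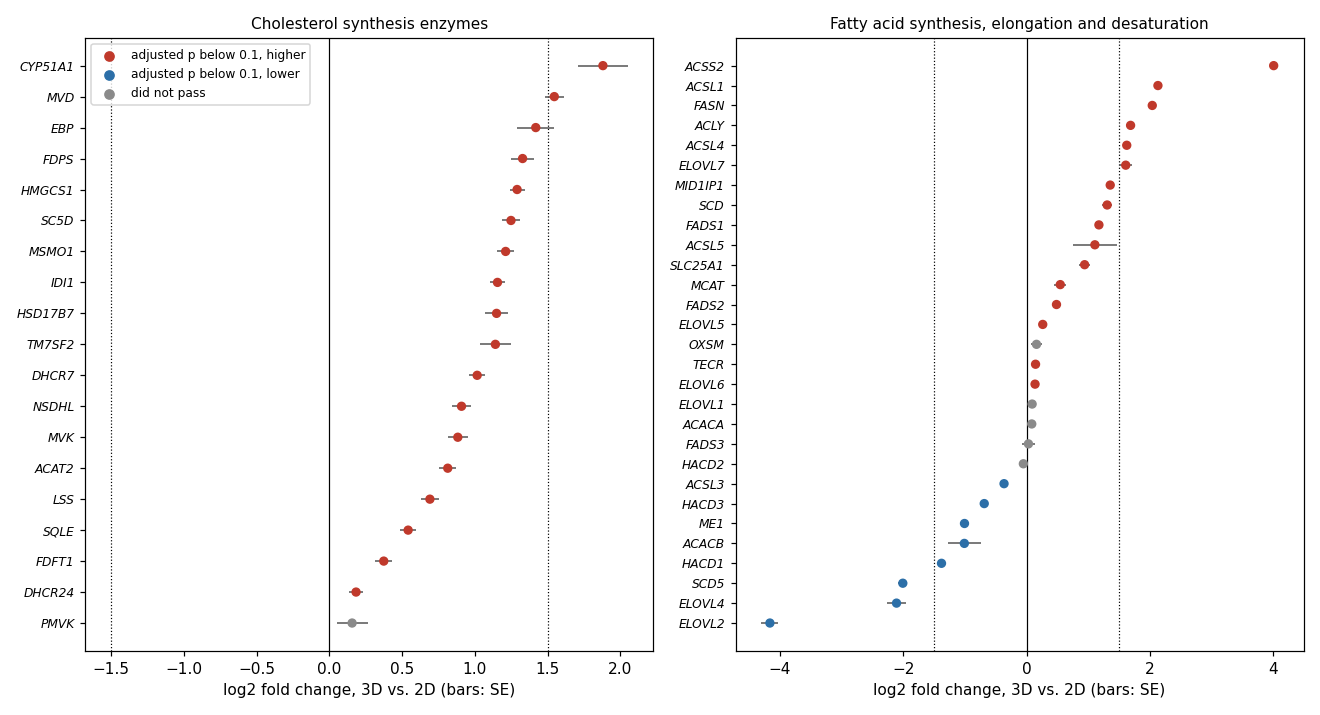
log2 fold change with SE of tested enzymes of cholesterol synthesis (left) and of fatty acid synthesis, elongation and desaturation (right), coloured by direction where the adjusted p was below 0.1, with dotted lines at -1.5 and 1.5. On the left each point but PMVK passed as higher and few cross the line, whereas on the right the points spread to both sides, from ELOVL2 at -4.16 to ACSS2 at 4.0. MLXIPL, without a count in 2D cells, is left out.

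Genes of sterol sensing and transport were called in both directions. INSIG1, which holds the SREBP complex in the endoplasmic reticulum and is itself an SREBP target, was at 304, 309.9 and 332 CPM in 2D cells and 1120.3, 1106 and 1130.5 CPM in 3D cells (log2 fold change 1.83, SE 0.0528, adjusted p = 3.28e-14). INSIG2, SCARB1, a lipoprotein receptor, and NR1H3, the LXR alpha receptor, were called higher (log2 fold change 3.04, 2.06 and 3.84), as were the cholesterol exporter ABCA1 and APOE (log2 fold change 2.64 and 2.56), from below 1 CPM in 2D cells. MYLIP, a ubiquitin ligase that LXR induces, fell from 14.3 to 0.739 CPM (log2 fold change -4.25, SE 0.166, adjusted p = 1.62e-12). In all, 6 of 26 were called higher and 1 lower.

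In fatty acid synthesis, enzymes before and after the carboxylase step rose. 30 members were tested, of which 17 passed as higher and 8 as lower and 7 and 3 were called, with a median log2 change of 0.21. The called shares were 23.3% higher and 10% lower, beside 6.90% and 9.29% of all genes. ACSS2 and ACLY make acetyl-CoA from acetate and citrate, and FASN builds palmitate from it. ACSS2 was at 24.3, 25.7 and 27.2 CPM in 2D cells and 427, 408 and 405 CPM in 3D cells (log2 fold change 4.0, SE 0.065, adjusted p = 3.81e-17). ACLY was at 372, 404 and 419 CPM in 2D cells and 1345, 1234 and 1266 CPM in 3D cells (log2 fold change 1.69, SE 0.0581, adjusted p = 3.14e-13). FASN was at 498, 510.1 and 468 CPM in 2D cells and 2178, 2073 and 1804 CPM in 3D cells (log2 fold change 2.04, SE 0.0667, adjusted p = 1.64e-13), and none of the groups overlapped. The acetyl-CoA carboxylases between them did not rise, ACACA overlapping between groups (log2 fold change 0.08, adjusted p = 0.3) and ACACB passing as lower (log2 fold change -1.01, adjusted p = 0.00358). SCD, which makes oleate, was already high and passed as higher, from 4201 to 10388 CPM (log2 fold change 1.31, SE 0.0859, adjusted p = 1.39e-09). The acyl-CoA synthetases ACSL4 and ACSL1 and the elongase ELOVL7 were called higher (log2 fold change 1.62, 2.13 and 1.61), and MLXIPL, the carbohydrate-responsive factor, had no count in 2D cells and was at least 8.32-fold higher. SCD5, a desaturase for the same step as SCD, and ELOVL2 and ELOVL4, which elongate longer chains, fell, with log2 fold changes of -2.01, -4.16 and -2.11.

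Of 40 genes of glycerolipid synthesis and lipid droplets tested, 25 passed as higher and 6 as lower, and 10 were called higher and 2 lower (25.0% and 5.00%). Of the enzymes that build glycerolipids GPAT3 was called higher, from below 1 CPM (log2 fold change 2.93), and DGAT2, which makes triglyceride, and CDS1, at the branch to phosphatidylinositol, lower (log2 fold change -4.16 and -4.04), while the others called higher were droplet coats, lipases, a lipase inhibitor and fatty acid carriers. PLIN2, the coat protein of droplets in most cells, was at 66.4, 70 and 68.6 CPM in 2D cells and 1442, 1379 and 1505 CPM in 3D cells (log2 fold change 4.4, SE 0.0597, adjusted p = 7.91e-18). HILPDA, an inhibitor of the lipase PNPLA2, rose from 4.82 to 87 CPM, and PNPLA2 itself from 19.4 to 62.5 CPM, with log2 fold changes of 4.17 and 1.69. MGLL, the monoglyceride lipase, was at 0, 0.207 and 0.0342 CPM in 2D cells and 74.4, 64.1 and 68.6 CPM in 3D cells (log2 fold change 9.6, SE 0.225, adjusted p = 2.32e-15). FABP4, a fatty acid carrier best known from adipocytes and macrophages, had 2 counts in 2D cells and 57 CPM in 3D cells, a ratio of 4620-fold (95% counting interval 828 to 182000). PLIN4, CIDEC and FABP5 were called higher (log2 fold change 6.94, 6.75 and 1.99). Of the adipocyte markers, CIDEC thus rose, whereas PLIN1 and LEP stayed at or below 0.254 CPM in each library. MGLL had 2 counts left in 2D cells without 2D replicate 2.

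Interferon-stimulated genes, which block viral replication and are driven by the interferon receptors through a promoter element called the ISRE, were lower in 3D cells. 48 members were tested, of which 7 passed as higher and 37 as lower and 2 and 28 were called, with a median log2 change of -2.23. The called shares were 4.17% higher and 58.3% lower, beside 6.90% and 9.29% of all genes. ISG15, a ubiquitin-like modifier, was at 9.5, 12 and 10.3 CPM in 2D cells and 2.24, 2.15 and 2.22 CPM in 3D cells (log2 fold change -2.27, SE 0.138, adjusted p = 5.25e-10). IFIT1, which binds foreign RNA ends, was at 5.88, 7.19 and 9.48 CPM in 2D cells and 1.15, 1.95 and 1.84 CPM in 3D cells (log2 fold change -2.18, SE 0.212, adjusted p = 1.71e-07). Neither gene overlapped between groups, and both were low in 2D cells already. GBP1, a guanylate-binding protein, was at 41.3, 48.1 and 50.8 CPM in 2D cells and 3.09, 3.06 and 3.46 CPM in 3D cells (log2 fold change -3.86, SE 0.101, adjusted p = 1.01e-14). DTX3L, PARP9 and PARP14 were called lower (log2 fold change -1.55, -2.36 and -2.53), and MX1, OAS2 and IFI44 (log2 fold change -4.25, -4.61 and -4.18). RSAD2, which makes an antiviral nucleotide, was at 2.19 CPM in 2D cells and had 4 counts in 3D cells, lower by a ratio of 91.9-fold (95% counting interval 25.4 to 759).

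**Figure D4:**
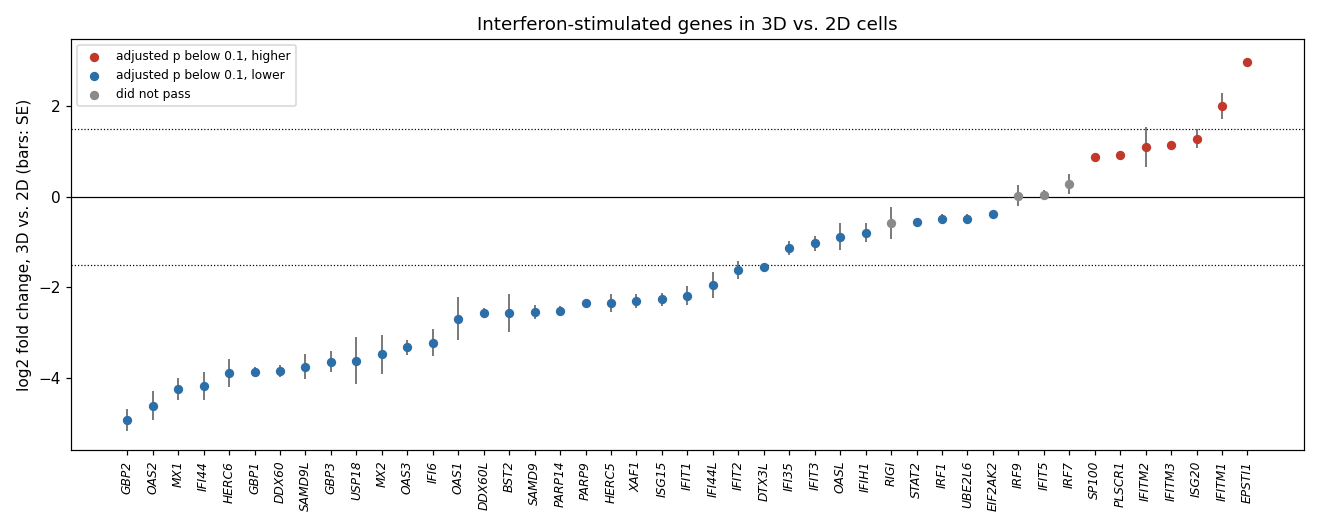
log2 fold change with SE of interferon-stimulated genes tested, in order of size, coloured by direction where the adjusted p was below 0.1. Most points lie below the dotted line at -1.5, and EPSTI1 and IFITM1 lie above the line at 1.5. Members with at most 6 counts in a group are left out.

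IFITM3, from 212 to 466 CPM, passed as higher (log2 fold change 1.14), and the summed level of the list was 1079.8 to 1244 CPM in 2D and 1007 to 1047 CPM in 3D libraries. The members called higher were EPSTI1, at 9.11, 10.8 and 12.2 CPM in 2D cells and 86.5, 80.5 and 87.6 CPM in 3D cells (log2 fold change 2.98, SE 0.0899, adjusted p = 5.84e-14), and IFITM1, a restriction factor at the membrane, at 0.332, 0.466 and 0.547 CPM in 2D cells and 2.12, 1.4 and 1.96 CPM in 3D cells (log2 fold change 2.01, SE 0.289, adjusted p = 1.59e-05). IFITM genes are close copies of each other, so reads of one could have been counted for another. The promoters of IFIT1 and ISG15, which fell, and of EPSTI1 and IFITM1, which rose, are shown because they hold the same ISRE core although the genes moved in opposite directions. Each stretch is from RefSeq on GRCh38.p14, 250 bases before to 50 after the annotated start, with TTTCNNTTT on either strand in capitals. They lie at chr10:89392373-89392672 (plus strand), chr1:1013247-1013546 (plus strand), chr13:42992192-42992491 (minus strand) and chr11:313790-314089 (plus strand), and are written 5′ to 3′ along the gene.
IFIT1: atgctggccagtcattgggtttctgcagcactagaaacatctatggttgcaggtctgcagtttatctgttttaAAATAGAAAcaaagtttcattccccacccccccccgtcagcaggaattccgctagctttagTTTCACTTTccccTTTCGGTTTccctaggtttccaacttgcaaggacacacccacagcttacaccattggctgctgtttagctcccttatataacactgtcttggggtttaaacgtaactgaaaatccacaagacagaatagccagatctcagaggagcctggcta
ISG15: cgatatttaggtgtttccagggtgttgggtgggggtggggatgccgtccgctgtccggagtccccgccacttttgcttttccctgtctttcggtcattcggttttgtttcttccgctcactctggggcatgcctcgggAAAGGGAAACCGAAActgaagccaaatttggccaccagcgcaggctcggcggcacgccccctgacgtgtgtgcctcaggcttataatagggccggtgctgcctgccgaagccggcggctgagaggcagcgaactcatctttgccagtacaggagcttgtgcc
EPSTI1: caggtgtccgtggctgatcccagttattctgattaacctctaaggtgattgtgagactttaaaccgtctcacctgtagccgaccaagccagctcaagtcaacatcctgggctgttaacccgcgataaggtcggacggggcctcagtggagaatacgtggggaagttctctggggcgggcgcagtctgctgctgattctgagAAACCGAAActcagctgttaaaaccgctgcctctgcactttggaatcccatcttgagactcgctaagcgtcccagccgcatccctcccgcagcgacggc
IFITM1: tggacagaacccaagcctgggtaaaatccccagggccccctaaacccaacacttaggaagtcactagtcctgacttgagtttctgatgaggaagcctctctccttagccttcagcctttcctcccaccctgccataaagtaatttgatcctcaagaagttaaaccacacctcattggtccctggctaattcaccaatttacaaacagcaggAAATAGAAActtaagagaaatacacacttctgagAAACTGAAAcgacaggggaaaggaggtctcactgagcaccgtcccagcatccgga
The core was in 29 of 39 promoters of tested members with a sequence (74.4%) and in 10.6% of 27305 promoters of the same length.

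In antigen presentation calls were near the background. Of 22 genes tested, 2 were called lower (9.09%, beside 9.29% of all genes) and 0 higher, while 12 passed as lower and 2 as higher. NLRC5, the transactivator of MHC class I, fell from 6.11 to 0.323 CPM (log2 fold change -4.2, SE 0.227, adjusted p = 1.12e-10), and PSMB9, an immunoproteasome subunit (log2 fold change -1.91). B2M, the light chain of MHC class I, was at 190.5, 213 and 213 CPM in 2D cells and 169.5, 158 and 159.9 CPM in 3D cells (log2 fold change -0.34, SE 0.0604, adjusted p = 0.000137).

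Cytokines were mixed, with 8 of 29 called higher and 6 lower. CXCL8, interleukin 8, which attracts neutrophils, was at 8.51, 6.26 and 6.41 CPM in 2D cells and 126, 124 and 143 CPM in 3D cells (log2 fold change 4.23, SE 0.104, adjusted p = 4.59e-15). CSF3, the granulocyte growth factor, had 3 counts in 2D cells and 16.8 CPM in 3D cells, a ratio of 901-fold (95% counting interval 249.5 to 7440). CCL20 and the macrophage factor CSF1 were called higher (log2 fold change 6.89 and 1.97). CCL2, which attracts monocytes, was at 18.1, 14.4 and 11.6 CPM in 2D cells and 2.68, 2.61 and 2.17 CPM in 3D cells (log2 fold change -2.57, SE 0.162, adjusted p = 8.44e-10). IL7 and IL15, which sustain lymphocytes, and TNFSF15 fell (log2 fold change -3.19, -2.51 and -3.52). IL6 passed as higher (log2 fold change 1.43), and IL1B stayed below 1 CPM in each library. CCL20 had 5 counts left in 2D cells without 2D replicate 3. IL6 gained a call with 1 library left out, at a log2 fold change of 1.59 without 2D replicate 2.

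In the complement list 3 genes were called higher and 3 lower of 16. CLU, clusterin, a secreted chaperone that blocks complement lysis, was at 513, 704 and 673 CPM in 2D cells and 10.4, 10.2 and 10.6 CPM in 3D cells (log2 fold change -5.92, SE 0.111, adjusted p = 1.68e-16). C6, of the membrane attack complex, fell (log2 fold change -5.14), from below 5 CPM. CD55, a membrane inhibitor, C5AR1 and SERPING1 rose (log2 fold change 1.93, 4.85 and 6.86). C1S passed as lower (log2 fold change -1.13), and C3 was at 6.86 and 8.38 CPM (log2 fold change 0.29, adjusted p = 0.0669). Among checkpoint and NK ligands, NT5E, CD73, which makes adenosine, was at 201, 195 and 199 CPM in 2D cells and 758, 767 and 839 CPM in 3D cells (log2 fold change 1.99, SE 0.056, adjusted p = 2.31e-14), and LGALS3, galectin 3, at 42.1, 50.8 and 49.4 CPM in 2D cells and 519.8, 528 and 574 CPM in 3D cells (log2 fold change 3.51, SE 0.0759, adjusted p = 8.92e-16). Both rose in each 3D library. ICOSLG was called higher (log2 fold change 3.02). CD276, B7-H3, fell (log2 fold change -2.25) and IDO1, which degrades tryptophan and is itself induced by interferon (log2 fold change -5.14). TDO2, which acts on the same substrate, was at 5.0, 8.06 and 9.09 CPM in 2D cells and had no count in 3D cells, at least 209-fold lower. CD274, PD-L1, passed as lower from 3.97 to 2.16 CPM (log2 fold change -0.86, SE 0.222, adjusted p = 0.00323). C6 had 4 counts left in 3D cells without 3D replicate 3. SERPING1 moved to a log2 fold change of 6.23 without 2D replicate 3.

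NF-kB feedback genes tended upward, with 16 of 30 passing as higher and 7 as lower, and 6 and 2 called. NFKBIA, the inhibitor that NF-kB induces, was at 44.6, 48.9 and 40.9 CPM in 2D cells and 117, 112 and 122 CPM in 3D cells (log2 fold change 1.39, SE 0.0701, adjusted p = 4.76e-11), and TNFAIP3 passed as higher (log2 fold change 0.46). TNIP1, BIRC3, IRAK2 and TLR2 were called higher (log2 fold change 2.38, 3.18, 1.91 and 6.54). TLR3, the receptor for double-stranded RNA, and TRAF1 fell (log2 fold change -4.39 and -1.51). TLR2 moved to a log2 fold change of 5.93 without 2D replicate 2. TRAF1 lost its call with 1 library left out, at a log2 fold change of -1.39 without 2D replicate 1 and -1.38 without 3D replicate 2.

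None of the genes of DNA replication, mitosis or the replication-dependent histones that passed edgeR's filter was called by edgeR or by DESeq2, although DESeq2, run without that filter, called the histone gene H1-6 lower. The mitotic genes shifted down together by a small amount. Of 65 mitosis and G2/M genes, 52 passed as lower and 2 as higher, also 52 and 2 at an unadjusted p below 0.05, with a median of -0.46, beside -0.007 for all genes. MKI67, the proliferation marker, was at 821, 762 and 744 CPM in 2D cells and 524, 591 and 477 CPM in 3D cells (log2 fold change -0.55, SE 0.0696, adjusted p = 4.06e-06). CCNB1, cyclin B1, was at 635, 676 and 626 CPM in 2D cells and 436, 430.4 and 467 CPM in 3D cells (log2 fold change -0.54, SE 0.0543, adjusted p = 2.73e-07). CDK1 had a log2 fold change of -0.48. The summed level of the list was 14301 to 14501 CPM in 2D and 9852 to 9987 CPM in 3D libraries. The element TTTGAA, known as CHR in mitotic promoters, was in 38 of 56 promoters of the list (67.9%) and in 15.4% of all promoters.

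DNA replication genes did not shift in the same way, with 25 of 59 passing as higher, 12 as lower (24 and 11 at an unadjusted p below 0.05) and a median of 0.06. MCM2, a subunit of the replicative helicase, passed as higher (log2 fold change 0.41, SE 0.0681, adjusted p = 7.07e-05), and PCNA, the polymerase clamp, as lower (log2 fold change -0.13, SE 0.0548, adjusted p = 0.0533), a result lost in DESeq2 (adjusted p = 0.102) and without 2D replicate 2, 3D replicate 1 or 3D replicate 2 (adjusted p = 0.206, 0.356 and 0.190). E2F1, the factor that drives these genes, was at 33.5, 34.6 and 30.9 CPM in 2D cells and 34.7, 31.6 and 31.5 CPM in 3D cells, and the groups overlapped (log2 fold change -0.02, SE 0.0706, adjusted p = 0.85). The E2F element TTTGGCGC was in 8 of 49 of their promoters (16.3%) and 0.659% of all. Of 56 histone genes, 25 passed as higher and 7 as lower, the same counts as at an unadjusted p below 0.05, H4C3 among the former (log2 fold change 0.46, SE 0.0955, adjusted p = 0.000559). Histone messages end without a poly(A) tail and the kit selects poly(A) RNA, so their levels are those of an incomplete capture.

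The cell cycle genes called by edgeR were all in the list of G1 cyclins, CDKs and CDK inhibitors. CCND1, cyclin D1, which binds CDK4 and CDK6, was at 1.22, 1.16 and 1.81 CPM in 2D cells and 98.8, 96.6 and 96.4 CPM in 3D cells (log2 fold change 6.11, SE 0.113, adjusted p = 1.52e-16). CDKN1A, p21, an inhibitor of CDKs, was at 4.11, 5.66 and 6.9 CPM in 2D cells and 56.4, 53.5 and 55.1 CPM in 3D cells (log2 fold change 3.29, SE 0.123, adjusted p = 9.07e-13). An activator and an inhibitor thus rose together, each without overlap. GADD45A and BTG2, which respond to stress and slow growth, were called higher (log2 fold change 2.85 and 1.59). CDKN2C, p18, an inhibitor of CDK4 and CDK6, was at 381, 419.9 and 414 CPM in 2D cells and 81.6, 75.2 and 81.7 CPM in 3D cells, and was the only G1 gene called lower (log2 fold change -2.35, SE 0.0617, adjusted p = 1.01e-14). In all, 4 of 42 were called higher (9.52%) and 1 lower (2.38%), beside 6.90% and 9.29% of all genes. The median of the list was 0.07. BTG2 lost its call with 1 library left out, at a log2 fold change of 1.37 without 2D replicate 2, 1.21 without 2D replicate 3 and 1.48 without 3D replicate 2 and moved to a log2 fold change of 2.42 without 2D replicate 1.

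The glucocorticoid receptor list had the highest share of calls. The receptor, a nuclear receptor for cortisol, switches on FKBP5, its own feedback chaperone, and TSC22D3, known as GILZ. 27 members were tested, of which 23 passed as higher and 2 as lower and 19 and 1 were called, with a median log2 change of 2.89. The called share was 70.4% higher and 3.70% lower. FKBP5 (ENSG00000096060.15; chromosome 6, 35573585 to 35728583) had 2 counts in all in 2D cells and 3307, 3444 and 3480.2 CPM in 3D cells. TSC22D3 was at 1.95, 2.21 and 1.67 CPM in 2D cells and 259, 236 and 240.2 CPM in 3D cells (log2 fold change 6.98, SE 0.0944, adjusted p = 7.91e-18). PDK4, a kinase that inhibits pyruvate dehydrogenase, was at 0, 0.103 and 0.102 CPM in 2D cells and 606, 623 and 647 CPM in 3D cells (log2 fold change 13, SE 0.157, adjusted p = 2.5e-18). ZBTB16, a transcription factor, had 2 counts in 2D cells and 73 CPM in 3D cells, a ratio of 5870-fold (95% counting interval 1053 to 232000). Of these, FKBP5, PDK4 and ZBTB16 were off or nearly off in 2D cells, TSC22D3 was low but measurable, and each was far higher in every 3D library.

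Other members of the list rose from a measurable level. KLF9, PER1, CEBPD and SLC19A2 had log2 fold changes of 4.72, 3.81, 2.89 and 3.6. The metallothioneins MT2A and MT1X, which bind zinc and copper, were called higher. MT2A was at 158, 142 and 97.9 CPM in 2D cells and 2048, 1921 and 2039 CPM in 3D cells (log2 fold change 3.92, SE 0.128, adjusted p = 1.55e-13), and MT1X rose (log2 fold change 4.8), although the metallothionein genes are close copies that could share reads. NR3C1, the receptor itself, passed as lower, from 579 to 347 CPM. CRISPLD2 was the member called lower (log2 fold change -2.39, SE 0.0656, adjusted p = 1.77e-14). ERRFI1, ACSL1, ZFP36, ANGPTL4, DUSP1 and GADD45A of this list also belong to others described here. The hormone content of the media was not measured, and its part in these differences was not tested.

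ERK feedback and immediate early genes rose as well. ERK kinases, at the end of the growth factor to RAS cascade, induce these transcription factors and the phosphatases and Sprouty proteins that restrain the cascade. 43 members were tested, of which 38 passed as higher and 2 as lower and 23 and 1 were called, with a median log2 change of 1.79. DUSP6, the ERK phosphatase, was at 5.22, 5.36 and 5.74 CPM in 2D cells and 91.4, 89.1 and 97.1 CPM in 3D cells (log2 fold change 4.09, SE 0.0747, adjusted p = 1.29e-16). SPRY4 was at 4.6, 4.17 and 3.81 CPM in 2D cells and 143, 144 and 135 CPM in 3D cells (log2 fold change 5.07, SE 0.0805, adjusted p = 2.98e-17). None of the 3D libraries came near the 2D range. PHLDA1 and FOSL1 had log2 fold changes of 2.42 and 3.09, DUSP5, DUSP4 and SPRY2 of 4.91, 3.8 and 3.4, and the ETS factors ETV5 and ETV4 of 2.79 and 4.11. MYC was at 90.1, 86.7 and 78.3 CPM in 2D cells and 584, 553 and 593 CPM in 3D cells (log2 fold change 2.76, SE 0.0642, adjusted p = 2.1e-15). JUND had a log2 fold change of 1.54, EGR1 of 2.65 and FOS of 2.71. DUSP10, a phosphatase for p38 and JNK, was the member called lower (log2 fold change -2.09, SE 0.16, adjusted p = 9.18e-09). JUND lost its call with 1 library left out, at a log2 fold change of 1.49 without 2D replicate 1.

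The EGF receptor and its ligands are upstream of that cascade. EGFR passed as higher, from 605 to 862 CPM (log2 fold change 0.51, SE 0.0658, adjusted p = 4.7e-06). AREG, amphiregulin, had 1 count in 2D cells and 24.7, 22.9 and 25.6 CPM in 3D cells, a ratio of 3960-fold (95% counting interval 712 to 157000). EREG, epiregulin, had no count in 2D cells and 13.3, 14.6 and 16.3 CPM in 3D cells, at least 402-fold higher. Both ligands of the receptor thus appeared in 3D cells, while HBEGF fell from 13.2 to 1.46 CPM (log2 fold change -3.18, SE 0.176, adjusted p = 1.59e-10). NRG1, the ligand of ERBB3 and ERBB4, fell from 268 to 69.5 CPM and LRIG3 (log2 fold change -1.64). ERRFI1, a feedback inhibitor that binds EGFR, was at 205, 206 and 213 CPM in 2D cells and 1376, 1371 and 1439 CPM in 3D cells (log2 fold change 2.75, SE 0.0523, adjusted p = 1.97e-16).

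Of 58 other receptor kinases and growth factors, 10 were called higher and 17 lower. INSR and ROR1 were receptors called higher (log2 fold change 1.73 and 2.5). Receptors called lower were more numerous and included EPHA4, EPHA3, FGFR2, NTRK3 and IGF1R, with log2 fold changes of -1.81, -4.39, -3.58, -6.01 and -1.5. Among ligands, VEGFA and ANGPTL4 rose, and KITLG and FGF5 fell (log2 fold change -2.01 and -1.91). The IGF-binding proteins IGFBP4 and IGFBP7 went opposite ways (log2 fold change 2.1 and -6.33), and IGFBP5 passed as higher (log2 fold change 1.23). IGF1R lost its call with 1 library left out, at a log2 fold change of -1.48 without 2D replicate 1, -1.49 without 2D replicate 3, -1.45 without 3D replicate 1 and -1.42 without 3D replicate 3.

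TGF-beta and BMP genes were called lower more often than higher, 14 against 3 of 52 (26.9% and 5.77%). BMP signals through SMAD1, SMAD5 and SMAD9 to the ID genes, whose products hold back differentiation factors. ID1 was at 133, 164 and 151 CPM in 2D cells and 8.35, 8.23 and 9.15 CPM in 3D cells (log2 fold change -4.12, SE 0.0865, adjusted p = 6.26e-16). ID3 was at 210.4, 234 and 199 CPM in 2D cells and 0.123, 0.156 and 0.122 CPM in 3D cells (log2 fold change -10.63, SE 0.128, adjusted p = 2.5e-18). ID4 was at 137, 131 and 137 CPM in 2D cells and 0, 0 and 0.0612 CPM in 3D cells, where it had 4 counts, lower by a ratio of 5570-fold (95% counting interval 1541 to 46000). The ID genes were near 0 or far below the 2D range in each 3D library. The feedback genes SMAD6, SMAD7, BAMBI and PMEPA1 fell too (log2 fold change -4.01, -1.65, -4.68 and -4.39). The receptors of TGF-beta went in opposite directions, TGFBR2 from 50 to 431 CPM (log2 fold change 3.11, SE 0.0553, adjusted p = 9.86e-17) and TGFBR1 from 669.8 to 132 CPM (log2 fold change -2.34, SE 0.0659, adjusted p = 2.31e-14). Among ligands, TGFB2 fell (log2 fold change -3.2), TGFB1 passed as lower (log2 fold change -0.31), and BMP4 was called higher (log2 fold change 1.61). SKIL, a SMAD repressor, fell (log2 fold change -1.76), and ENG, a co-receptor, rose (log2 fold change 3.11).

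Of 44 WNT genes, 7 were called higher and 10 lower. AXIN2, the most general target of the canonical pathway, fell from 7.63 to 2.15 CPM (log2 fold change -1.82, SE 0.159, adjusted p = 4.84e-08), and APCDD1 and LGR5 fell (log2 fold change -7.54 and -4.71). Secreted inhibitors fell as well, SFRP1 and SFRP2 (log2 fold change -3.74 and -1.87) and DKK1 (log2 fold change -2.1). WNT5B rose (log2 fold change 1.83), FZD5 (log2 fold change 2.57) and WNT9A (log2 fold change 4.78), whereas FZD6 fell (log2 fold change -1.85) and WNT5A passed as lower (log2 fold change -0.94). PORCN, needed for WNT secretion, was called higher (log2 fold change 1.57, SE 0.132, adjusted p = 3.03e-08). In NOTCH signalling, NOTCH3 was at 130.1, 138 and 133 CPM in 2D cells and 14.3, 14.1 and 13.6 CPM in 3D cells (log2 fold change -3.26, SE 0.0637, adjusted p = 2.6e-16), while the target genes HEY1 and HES7 were called higher (log2 fold change 2.22 and 3.39), and HES1 passed as higher (log2 fold change 0.8). DTX4 was higher (log2 fold change 5.48), MFNG, with 6 counts in 2D cells, by a ratio of 12.6-fold (95% counting interval 4.3 to 60.9), and LFNG lower (log2 fold change -1.53), all from a mean below 1 CPM in 2D cells. LFNG lost its call with 1 library left out, at a log2 fold change of -1.21 without 2D replicate 1, -1.42 without 3D replicate 1 and -1.42 without 3D replicate 3.

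YAP and TEAD targets, read-outs of cell spreading and tension, did not move together. 34 members were tested, of which 17 passed as higher and 15 as lower and 4 and 5 were called, with a median log2 change of 0.10. CCN2, the usual reporter gene, was at 261, 240.2 and 230.0 CPM in 2D cells and 32, 31.5 and 34.1 CPM in 3D cells (log2 fold change -2.9, SE 0.0668, adjusted p = 1.82e-15), yet CCN1, the other one, was at 196, 160.0 and 136 CPM in 2D cells and 320.2, 305 and 342 CPM in 3D cells (log2 fold change 0.98, SE 0.0966, adjusted p = 2.16e-07). The neighbours in function thus moved apart, both without overlap. VGLL3, a TEAD cofactor, was at 23.5, 20.7 and 22.6 CPM in 2D cells and 874, 915 and 846 CPM in 3D cells (log2 fold change 5.3, SE 0.0694, adjusted p = 5.98e-18). F3, tissue factor, which starts coagulation, had no count in 2D cells and 132, 143 and 149 CPM in 3D cells, at least 3830-fold higher. AMOT and AJUBA fell (log2 fold change -4.35 and -2.21). ANKRD1 was too low to test. The TEAD element GGAATG was in 7 of 26 promoters of the list (26.9%) and in 14% of all promoters.

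Hypoxia targets other than glycolytic enzymes rose in 3D cells. At low oxygen, HIF1A and EPAS1 are spared from degradation and bind a core ACGTG. 47 members were tested, of which 38 passed as higher and 8 as lower and 24 and 2 were called, with a median log2 change of 1.71. CA9, a carbonic anhydrase that is a standard marker of hypoxia, was at 0.53, 1.17 and 0.751 CPM in 2D cells and 45.5, 43.2 and 42.5 CPM in 3D cells (log2 fold change 5.7, SE 0.151, adjusted p = 1.09e-14). NDRG1 was at 4.86, 7.76 and 5.53 CPM in 2D cells and 537, 508 and 518 CPM in 3D cells (log2 fold change 6.42, SE 0.124, adjusted p = 2.34e-16). VEGFA, the angiogenic factor, was at 56.6, 58.6 and 62.9 CPM in 2D cells and 336, 331 and 328 CPM in 3D cells (log2 fold change 2.48, SE 0.0595, adjusted p = 3.16e-15). Each was higher in every 3D library than in any 2D library. STC1, ERO1A, BNIP3L and BNIP3, the last pair receptors for mitophagy, had log2 fold changes of 3.24, 2.35, 1.71 and 2.43, and ADM, ANGPTL4 and EGLN3 of 4.64, 5.25 and 7.28. The messages of the factors differed, EPAS1 rising from 27.5 to 249 CPM (log2 fold change 3.18, SE 0.0621, adjusted p = 2.5e-16) and HIF1A, which is controlled mainly as protein, falling from 572 to 331 CPM (log2 fold change -0.79, SE 0.0513, adjusted p = 1.19e-09). CA12 fell (log2 fold change -1.93), and ARNT2 was the other member called lower. EGLN3 had 1 count left in 2D cells without 2D replicate 3.

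The promoters of CA9 and ANGPTL4 are shown as examples of rising targets with the core, and those of FDPS and MVD for cholesterol synthesis, whose members often hold ATTGG, the reverse of the CCAAT box bound by NF-Y. The core or box is in capitals on either strand. Coordinates on GRCh38.p14 from RefSeq are chr9:35673678-35673977 (plus strand), chr19:8363905-8364204 (plus strand), chr1:155308616-155308915 (plus strand) and chr16:88663042-88663341 (minus strand), written 5′ to 3′ along the gene.
CA9: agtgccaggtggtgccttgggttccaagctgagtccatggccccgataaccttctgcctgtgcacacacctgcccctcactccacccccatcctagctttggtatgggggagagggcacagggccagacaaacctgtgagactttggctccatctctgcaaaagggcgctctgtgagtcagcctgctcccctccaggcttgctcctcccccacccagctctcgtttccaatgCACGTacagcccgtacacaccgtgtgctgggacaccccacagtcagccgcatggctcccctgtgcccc
ANGPTL4: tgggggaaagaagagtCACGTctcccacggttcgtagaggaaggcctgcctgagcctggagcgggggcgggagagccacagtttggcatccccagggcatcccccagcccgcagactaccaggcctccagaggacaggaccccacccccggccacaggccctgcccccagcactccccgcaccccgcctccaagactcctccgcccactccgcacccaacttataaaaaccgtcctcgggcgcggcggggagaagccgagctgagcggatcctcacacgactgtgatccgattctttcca
FDPS: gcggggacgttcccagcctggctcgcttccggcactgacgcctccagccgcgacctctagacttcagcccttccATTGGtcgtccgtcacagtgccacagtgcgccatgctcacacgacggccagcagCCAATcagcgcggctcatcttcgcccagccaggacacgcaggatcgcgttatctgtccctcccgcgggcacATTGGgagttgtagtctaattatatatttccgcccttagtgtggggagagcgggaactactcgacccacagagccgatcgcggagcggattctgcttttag
MVD: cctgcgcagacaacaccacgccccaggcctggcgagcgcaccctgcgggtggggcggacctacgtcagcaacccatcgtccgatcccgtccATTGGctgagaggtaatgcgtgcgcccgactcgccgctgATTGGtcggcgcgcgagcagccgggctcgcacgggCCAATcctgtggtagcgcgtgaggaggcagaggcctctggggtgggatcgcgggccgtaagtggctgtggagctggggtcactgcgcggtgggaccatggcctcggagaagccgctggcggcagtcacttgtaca
ACGTG was in 19 of 36 promoters of the hypoxia list (52.8%) and in 21.6% of all promoters. ATTGG was in 12 of 15 promoters of cholesterol enzymes (80%) and in 35.7% of all. CACGTG, which contains ACGTG, was in 2 of these 15 (13.3% against 7.43%), and TCACCCCAC, from the SREBP element, in 0 (0.425% of all).

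**Figure D5:**
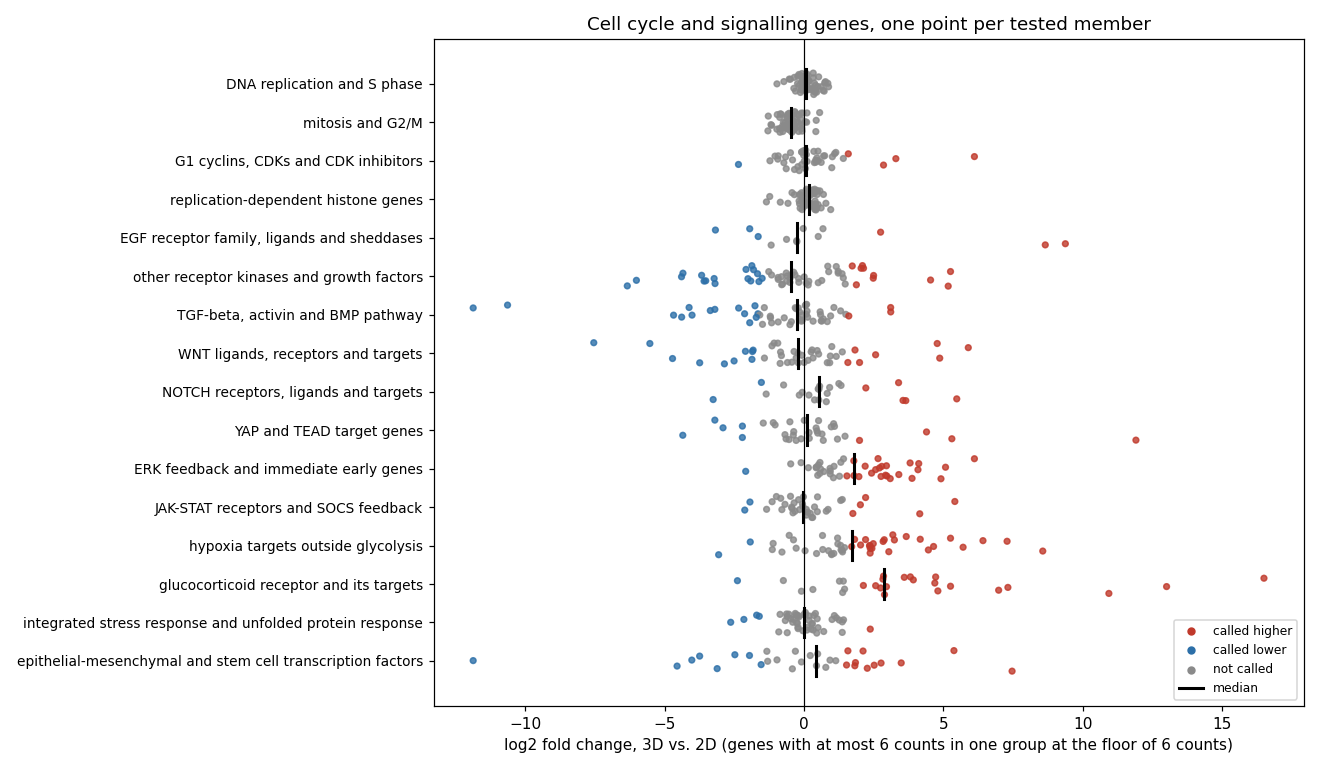
log2 fold change of each tested member of the cell cycle and signalling lists, coloured by call, with black bars at the median and genes with at most 6 counts in a group drawn at a floor of 6 counts. Cell cycle points crowd around 0, ERK feedback, hypoxia and glucocorticoid points lie mostly to the right, and the lowest points of the TGF-beta list are ID3 and ID4.

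JAK-STAT genes were mixed, with 5 called higher and 2 lower of 37. IL13RA2, a decoy receptor for interleukin 13, was at 3.07, 3.73 and 4.03 CPM in 2D cells and 142, 145 and 176 CPM in 3D cells (log2 fold change 5.41, SE 0.109, adjusted p = 3.98e-16). PIM2 and IL4R were called higher (log2 fold change 2.02 and 1.75), and JAK2 and IL7R lower (log2 fold change -1.94 and -2.12). STAT3 and SOCS3, its feedback inhibitor, passed as lower (log2 fold change -0.4 and -1.14). Stress response genes were called lower about as often as all genes and seldom higher, with 1 higher and 4 lower of 49 (2.04% and 8.16%, beside 6.90% and 9.29%). HSPA5, the chaperone of the endoplasmic reticulum, passed as higher (log2 fold change 0.46, SE 0.0485, adjusted p = 5.05e-07), and ATF4, the factor of the integrated stress response, overlapped between groups (log2 fold change -0.04, SE 0.0547, adjusted p = 0.543). SLC7A11, the cystine importer, was at 188, 183 and 205 CPM in 2D cells and 31.3, 32.3 and 29.6 CPM in 3D cells (log2 fold change -2.63, SE 0.0662, adjusted p = 5.93e-15). PHGDH, the first enzyme of serine synthesis, and ALDH1L2 of mitochondrial folate metabolism fell (log2 fold change -2.16 and -1.7), and NUPR1 (log2 fold change -1.6). DDIT4, an inhibitor of mTORC1 that several of these signals induce, rose (log2 fold change 2.38), DDIT3 passed as higher (log2 fold change 1.26), and ASNS was at 2.59 and 3.2 CPM (log2 fold change 0.3, adjusted p = 0.154).

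Transcription factors of epithelial-mesenchymal transition and of stem cells changed in both directions, 11 called higher and 8 lower of 31. TWIST1 was at 60.4, 64.3 and 63.7 CPM in 2D cells and 225, 213 and 239.9 CPM in 3D cells (log2 fold change 1.85, SE 0.0621, adjusted p = 2.35e-13), and ZEB1, a repressor of epithelial genes, rose from 93.4 to 206 CPM (log2 fold change 1.14, SE 0.0586, adjusted p = 6.01e-11). SNAI1, which acts on the same genes, fell from 8.16 to 0.942 CPM (log2 fold change -3.11, SE 0.179, adjusted p = 2.58e-10). PRRX1, HMGA1, HMGA2 and TFAP2C were called higher (log2 fold change 3.49, 1.82, 2.27 and 5.38), and SOX9, SOX4 and TCF4 lower (log2 fold change -2.48, -1.54 and -1.95). BMI1, a polycomb protein, overlapped between groups (log2 fold change -0.09, SE 0.0726, adjusted p = 0.301), and shares 22.8% of its exon bases with a read-through gene on the same strand. SOX2, with 6 counts in all, was not tested. SOX4 lost its call with 1 library left out, at a log2 fold change of -1.492 without 3D replicate 1 and -1.498 without 3D replicate 2.

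Outside these lists, the largest rises and falls by fold were of genes switched between nothing and a clear level. OR2T8, an olfactory receptor gene on chromosome 1, was at 163, 117 and 109 CPM in 2D cells and had no count in 3D cells, at least 3500-fold lower. Its neighbours OR2T33 and TRIM58 were also without a count, at least 431-fold and at least 336-fold lower, as was CCDC3, at least 683-fold. LRRN1, a leucine-rich membrane protein, was at 649, 596 and 656 CPM in 2D cells and 0.391, 1.01 and 0.459 CPM in 3D cells (log2 fold change -10.01, SE 0.159, adjusted p = 2.98e-17). IQGAP2, SCARA3 and PRSS35 had log2 fold changes of -10.84, -11.07 and -9.21, and CYTL1, with 4 counts in 3D cells, was lower by a ratio of 718-fold (95% counting interval 199 to 5930). In the other direction ABLIM3, an actin-binding protein, was at 0.0884, 0.0345 and 0.0342 CPM in 2D cells and 870.0, 851 and 826 CPM in 3D cells (log2 fold change 14, SE 0.123, adjusted p = 6.77e-20). SULT1B1, a sulfotransferase, had 2 counts in 2D cells and 134 CPM in 3D cells, a ratio of 10800-fold (95% counting interval 1933 to 425000). NOS2, the inducible nitric oxide synthase, AKR1C2, which reduces steroids, and STEAP2, a metalloreductase, had no count in 2D cells and were at least 661-fold, at least 1140-fold and at least 529-fold higher. AKR1C2 has close copies that could share its reads. A pair of lncRNA genes, ENSG00000288597 and ENSG00000253406, were also without a count in 2D cells, at least 443-fold and at least 268-fold higher. SCARA3 had 2 counts left in 3D cells without 3D replicate 2.

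The series holds further mammospheres without drug or silencing, the vehicle-treated tet-MUC1shRNA and tet-MYCshRNA lines, with 3 libraries each in 0.1% DMSO. The tet-MUC1shRNA mammospheres were at passage 6 like the 3D cells and the tet-MYCshRNA mammospheres at passage 8, so that line and passage cannot be told apart in the latter. They carry an inducible shRNA that is not switched on, and they are compared with the same 2D libraries, so their agreement with the 3D cells is not independent. With all 12 libraries scaled together, CDH6 was at 993 to 1101 CPM in 2D cells, and at 0.327 to 0.657 CPM in 3D cells, 0 to 0.103 in the tet-MUC1shRNA line and 0.89 to 0.969 in the tet-MYCshRNA line. FN1 was at 435 to 459 CPM in 2D cells, and at 6290.0 to 6888 CPM in 3D cells, 9835 to 10910.0 in the tet-MUC1shRNA line and 5005 to 5254 in the tet-MYCshRNA line. FKBP5 was at most 0.0337 CPM in 2D cells, and at 3285 to 3475 CPM in 3D cells, 2086 to 2327 in the tet-MUC1shRNA line and 1420.0 to 1483 in the tet-MYCshRNA line. The direction against 2D cells was the same for these chosen genes, but of the 3107 genes called in 3D cells 2283 were called in the same direction in the tet-MUC1shRNA mammospheres and 6 in the opposite one, and 7 of 38 list medians changed sign, among them those of basement membrane proteins and replication-dependent histones. SPARC, at 3988 to 4617 CPM in 2D cells, was at 270.4 to 292 CPM in 3D cells, 384 to 391 in the tet-MUC1shRNA line and 194 to 197 in the tet-MYCshRNA line. The median log2 fold changes against 2D cells, in the order 3D, tet-MUC1shRNA and tet-MYCshRNA, were -1.74, -2.57 and -3.21 for the cadherin list, -2.23, -1.99 and -2.25 for interferon-stimulated genes, 1.08, 1.30 and 0.49 for cholesterol synthesis, 1.79, 1.87 and 1.44 for ERK feedback, 1.71, 2.24 and 1.48 for hypoxia targets and 2.89, 2.67 and 2.02 for glucocorticoid targets. For mitosis and G2/M they were -0.46, -0.92 and -0.12, and for DNA replication 0.06, -0.40 and 0.33, where the lines took different signs.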

How the data were processed

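Total RNA was prepared as stranded, poly(A)-selected paired-end libraries (TruSeq Stranded mRNA). The authors aligned reads to GRCh38 with STAR (2.7.3a in the submitters' processing notes), counted them per gene with featureCounts and deposited raw counts without normalization for 42339 genes. Strand setting and handling of multi-mapping reads are not given in the sources used here. Cells left blank were read as 0.

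Groups came from the labels. In R 4.3.3, genes were filtered with filterByExpr, scaled by TMM and tested across all 19190 genes with edgeR 4.0.16 (quasi-likelihood, Benjamini-Hochberg), with the 6 libraries and no covariate. The biological coefficient of variation was 0.0895. The functions, the 38 gene lists, the genes named and the motifs were chosen with earlier results of these data known, so the lists are described by counts and medians and not tested. Within each list the text names marker genes set by hand and up to 4 called members per direction with the highest mean CPM, besides the 12 largest changes by fold (mean CPM of at least 5) and by CPM. Of the counts above 0, 60.2% to 61.9% were even, so the mates of a read pair seem to have been counted separately. Where at most 6 counts (3 pairs) were seen over a group, folds were computed against 6 counts over the group if it had none, and otherwise given with an exact 95% Poisson interval for the number of pairs, which covers counting error only. The steps were tested on simulated data. Some list members are counted but not reported here by name. Gene positions came from GENCODE release 44 and promoters from RefSeq. Alternatives were DESeq2 1.42.0, other scalings and filters, a fit of 21 libraries, a replicate block, other thresholds, the tet-MUC1shRNA mammospheres given vehicle instead of 3D cells, and leaving out each library. Replicate libraries of a group differed by more than sampling noise (chi-square per degree of freedom 8.68 to 15.6). Replicate numbers were not used to pair cultures, since same-numbered libraries did not deviate together.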

Additional observations from a re-analysis of the deposited data

How the results depend on the processing

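Depth was 43861798 counts or more per library, so the spread between replicate libraries and not counting limits most values, and genes below about 1 CPM are the least certain. The size threshold moved the counts most. With an absolute fold change above 1.5, 3438 genes were called higher and 4051 lower, with 27 and 54 for adhesion, 51 and 91 for matrix, 59 and 13 for lipid genes, 40 and 67 for immune, 22 and 34 for cell cycle and 180 and 117 for signalling. Requiring at least 10 counts in every library removes genes that are off in a group and left 682 higher and 932 lower, with 9 adhesion, 18 matrix and 14 immune genes called higher. DESeq2 called 1744 higher and 2362 lower, and the fit without a filter 1904 and 2643, each with 2 cell cycle genes lower, CDKN2C and the histone gene H1-6, which the filter had left out with 42 counts in 2D and 8 in 3D cells. The replicate block gave 1331 and 1807 genes. Same-numbered libraries did not deviate together (correlations -0.09 to 0.04). With the block, each of 372 genes compared kept its sign and passed or did not pass as before. Of the 3107 called genes, 3088 were called in the same direction with the block. List medians shifted by up to 0.87 with at least 10 counts in every library and up to 0.64 with DESeq2 or without a filter, and 1, 4 and 4 of the 38 changed sign. Library size alone moved the overall median log2 change from -0.007 to -0.067.

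When 1 library at a time was left out, 1443 to 1574 genes were called higher and 1871 to 2218 lower. In each of these fits 1 to 4 of the 38 list medians changed sign. The ranges for higher and lower calls were 15 to 16 and 34 to 35 for adhesion, 31 to 34 and 57 to 59 for matrix, 25 to 27 and 6 to 7 for lipid genes, 22 to 24 and 44 to 47 for immune, 3 to 4 and 1 to 2 for cell cycle, and 109 to 112 and 65 to 71 for signalling. Signs turned for genes that had not passed, BMI1 with a range of -0.135 to 0.00345 (above 0 without 2D replicate 1), E2F1 with a range of -0.0627 to 0.0309 (above 0 without 2D replicate 2, 3D replicate 2 or 3D replicate 3), and VCL with a range of -0.0774 to 0.00606 (above 0 without 3D replicate 2).

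When the tet-MUC1shRNA mammospheres given vehicle took the place of 3D cells, 9 cell cycle genes were called higher and 35 lower. The log2 fold change turned sign for B2M (0.31), BMI1 (0.11), C3 (-2.50), CD274 (0.0849), COLGALT2 (0.61), EGFR (-0.35), GJA1 (0.15), ITGB3 (1.84), MCM2 (-0.22), PCDH9 (-0.95), PKP4 (-0.15), PMVK (-1.18), TEK (0.40), TNC (1.09), TPM2 (-0.57) and TRAF1 (0.0026). These are other cultures of a modified line, and the cause was not tested.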

Other observations

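Protein-coding genes with a mean of at least 1 CPM were also counted by chromosome. On chromosome 4 the median log2 fold change in 3D vs. 2D cells was -0.38 over 434 genes, 67.5% of them lower, with 21 called higher and 78 lower. Chromosome 22 had a median of -0.30 over 251 genes, 71.3% of them lower, with 8 called higher and 21 lower. The medians of the other autosomes ran from -0.12 to 0.22. Against the same 2D libraries, the vehicle-treated tet-MUC1shRNA mammospheres had medians of -0.25 and -0.16 on chromosomes 4 and 22, and the tet-MYCshRNA mammospheres -0.31 and -0.29. There the other autosomes ran from -0.23 (chromosome 18) to 0.12 and from -0.30 (chromosome 9) to 0.18, so that chromosomes 4 and 22 were not clearly set apart in these lines. Genes of a chromosome are not independent, copy number was not measured, and the cause was not tested.

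Of the lncRNA genes tested, 220 were called higher and 413 lower, while of 2321 pseudogenes 91 were called higher and 94 lower.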
